A study of Mus musculus with 12 samples.

Results

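Collagens and the glycoproteins and proteoglycans laid down around them were followed in primary cortical astrocyte cultures of the senescence-accelerated mouse. The genes were taken by name: every collagen gene with a symbol of the form Col, number, a, number, apart from the type IV chains Col4a1 and Col4a2 that belong to basement membranes, and 26 further symbols for interstitial matrix proteins. This gave 57 genes with a probe on the array, 35 of them collagens and 22 of them glycoproteins or proteoglycans. Detection, meaning a detection p-value under 0.05, was required on all 3 arrays of 1 or more of the groups, and 36 of the 57 genes met this, 16 collagens and 20 others, among 8068 genes kept in all. The 16 collagens include Col4a4, Col4a5 and Col4a6, type IV chains that also belong to basement membranes but were taken by the form of their symbols. No probe named Efemp1, Efemp2, Fbn1 or Vcan. Of the 21 genes that were not kept, 19 were collagens, such as Col2a1, Col5a2, Col11a1 and Col15a1, and the other 2 were Fbln5 and Mfap2.

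The cultures were enriched astrocytes from the cerebral cortex of pups of postnatal day 2, either of SAMP8, the strain that ages early and develops memory deficits, or of SAMR1, its normally ageing relative. At day 21 in culture they received for 48 h a medium with 10% serum from rats kept on caloric restriction (CR) or fed ad libitum (AL). The 4 groups were SAMP8-CR, SAMP8-AL, SAMR1-CR and SAMR1-AL, with 3 samples each from independent experiments. Total RNA was measured on Illumina MouseRef-8 arrays with 24613 probes, and levels are given as normalized log2 intensity, on which 0 is the mean of all probes of an array. A difference of 1 is only approximately a doubling in intensity, since arrays with an SD of 1.233 to 1.613 were scaled to 1.418. Fold values refer to this scaled intensity.

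Interstitial matrix is built around collagen fibrils. Fibrillar chains are secreted as procollagens, assemble into fibrils whose spacing is set by small leucine-rich proteoglycans, and are cross-linked by lysyl oxidases, while fibulins and microfibril proteins organize elastic fibres and matricellular proteins adjust how cells attach. In the brain such matrix is known mainly from the meninges and the walls of larger vessels, and cultured cortical glia can carry some cells of these tissues beside astrocytes.

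The arrays fell into 2 sets by their lowest intensity, which was 40.1 to 42.9 in replicates 2 and 3 of SAMP8-CR and SAMP8-AL and 7.01 to 8.19 in the other 8 samples, including replicate 1 of both SAMP8 groups. No label names these sets, so that array set and replicate cannot be told apart within SAMP8. Probes detected made up 41.2% to 46.7% of each array, and samples of a group correlated with r of 0.963 to 0.992 over all kept probes. Astrocyte markers averaged 2.02 to 2.93 on the log2 scale in every sample. Precision is limited by having 3 arrays in a group.

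The 36 matrix genes divided the SAMP8 cultures by replicate, and 0 of the 36 passed the test for serum in either strain. In SAMP8 replicates 2 and 3 (4 samples), 18 of the 36 genes were higher than in replicate 1 (2 samples) and 0 were lower, whereas 1.23% of all genes tested were higher and 0.149% were lower. The median difference over the 36 genes was 0.75 on the log2 scale, against 0.00 over all genes. This comparison sets samples of the same groups against each other, so it describes these replicates and not a condition. Same-numbered SAMP8-CR and SAMP8-AL samples deviated together, yet the fit of this contrast took all samples as independent. Its SE and adjusted p therefore do not measure the spread between independent experiments. RNA came from whole cultures, in which fewer cells of a type and less RNA per cell cannot be told apart.

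**Figure D1:**
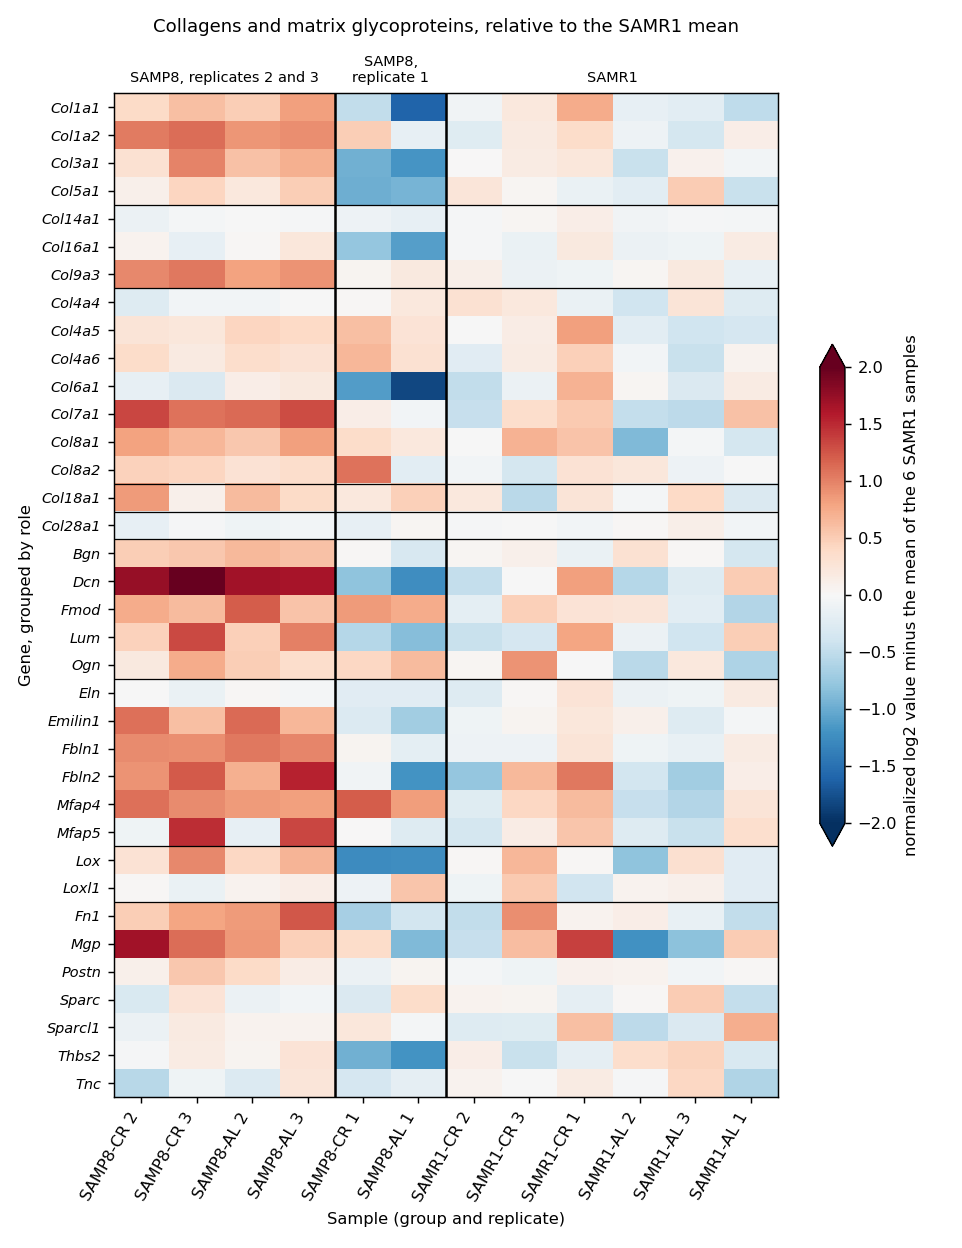
Normalized log2 intensity of the 36 genes (rows, by role) in the 12 samples (columns), shown as the difference from the mean of the 6 SAMR1 samples on a colour scale of -2 to 2. Replicates 2 and 3 of both SAMP8 groups are above that mean for most fibrillar collagens, proteoglycans and fibulins, while replicate 1 of both SAMP8 groups is below it for many of the same genes, Dcn and Col3a1 among them.

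All 4 fibrillar collagen chains kept were higher in SAMP8 replicates 2 and 3 than in replicate 1. Col3a1, the chain of type III collagen, read 3.16 and 3.84 in SAMP8-CR replicates 2 and 3 and 3.44 and 3.56 in SAMP8-AL replicates 2 and 3, against 1.89 and 1.67 in replicate 1 of the same groups. The 4 values lay above both of the others, and the difference was 1.72 ± 0.20 (SE, 3.30-fold, limma adjusted p = 0.00029). Col1a1, which with Col1a2 makes type I collagen, read 3.00, 3.22, 3.12 and 3.44 in SAMP8 replicates 2 and 3, against 2.14 and 1.03 in replicate 1. Its difference was 1.60 ± 0.26 (3.04-fold, adjusted p = 0.00454), and the replicate 1 sample with AL serum was the lowest of all 12 samples. Col5a1, a minor chain that helps to start type I fibrils, differed by 1.26 ± 0.20 (adjusted p = 0.00379). Col1a2, a dimmer probe, differed by 0.83 ± 0.13 (adjusted p = 0.0042).

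The promoters of Col3a1 and Col1a2, and of 3 further genes that were higher in SAMP8 replicates 2 and 3 (Col16a1, Thbs2 and Col6a1), are shown. That of Col8a1, which did not pass in this contrast, is shown beside them. Each is the 150 bases before the RefSeq start of the gene in build GRCm38.p6, read 5′ to 3′ on the strand of the gene, with motif matches in capitals. Where a gene has several starts, the one farthest 5′ was used, and the motif distances depend on this choice. The motifs searched were TATAAA, an element of core promoters that reads TTTATA where it lies on the opposite strand, then CCAAT, the element bound by NF-Y, then TGACTCA, the AP-1 site, and last GGGCGG, the element bound by Sp1, which reads CCGCCC in the Col8a1 promoter because it lies on the opposite strand there. The regions are chr1:45311388-45311537 on the + strand for Col3a1, chr6:4505468-4505617 on the + strand for Col1a2, chr4:130047690-130047839 on the + strand for Col16a1, chr17:14694263-14694412 on the - strand for Thbs2, chr10:76726045-76726194 on the - strand for Col6a1 and chr16:57754738-57754887 on the - strand for Col8a1.
Col3a1: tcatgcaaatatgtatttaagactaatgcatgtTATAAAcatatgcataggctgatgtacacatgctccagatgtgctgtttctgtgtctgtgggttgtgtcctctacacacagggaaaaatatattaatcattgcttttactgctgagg
Col1a2: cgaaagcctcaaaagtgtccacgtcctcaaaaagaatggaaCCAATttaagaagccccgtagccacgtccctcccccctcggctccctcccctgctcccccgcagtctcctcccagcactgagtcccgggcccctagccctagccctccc
Col16a1: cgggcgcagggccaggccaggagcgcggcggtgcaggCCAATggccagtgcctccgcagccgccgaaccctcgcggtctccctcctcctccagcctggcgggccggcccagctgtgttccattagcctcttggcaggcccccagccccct
Thbs2: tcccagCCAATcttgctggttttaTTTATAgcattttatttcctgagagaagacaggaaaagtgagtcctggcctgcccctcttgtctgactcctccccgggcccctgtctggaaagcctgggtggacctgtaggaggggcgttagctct
Col6a1: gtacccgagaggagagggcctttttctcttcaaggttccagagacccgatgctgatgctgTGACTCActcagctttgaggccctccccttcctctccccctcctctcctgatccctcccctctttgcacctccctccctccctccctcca
Col8a1: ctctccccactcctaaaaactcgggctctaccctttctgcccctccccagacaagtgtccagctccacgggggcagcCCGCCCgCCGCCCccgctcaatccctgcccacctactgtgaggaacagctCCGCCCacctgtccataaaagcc
The TATAAA match of Col3a1 began 117 bases before the start, the CCAAT match lay 109 bases before it in Col1a2, 113 in Col16a1 and 144 in Thbs2, and the AP-1 site lay 90 bases before it in Col6a1. No match overlapped another in these 6 sequences. A promoter was found for 23 of the 36 genes. On both strands, CCAAT was present in 3 of the 11 promoters of genes higher in SAMP8 replicates 2 and 3 and in 0 of the 12 of genes not called, against 24.5% of 32851 promoters of this length. TATAAA was present in 2 of 11 and 1 of 12 (7.57% of all promoters), GGGCGG in 4 of 11 and 5 of 12 (28.6%), and TGACTCA in 1 of 11 and 0 of 12 (2.84%).

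Among the small leucine-rich proteoglycans, Dcn, Lum and Bgn were higher in SAMP8 replicates 2 and 3, and Fmod and Ogn did not pass. Dcn encodes decorin, which binds collagen fibrils and limits their width. It read 3.20 and 3.68 in SAMP8-CR replicates 2 and 3 and 3.14 and 3.11 in SAMP8-AL replicates 2 and 3, against 0.65 and 0.21 in replicate 1. This was the largest difference among the 36 genes, 2.85 ± 0.18 (7.22-fold, adjusted p = 6.08e-07), and the 3 Dcn probes differed by 2.00 to 2.85, each past the threshold. Lum, which encodes the corneal and dermal proteoglycan lumican, read 0.44, 1.30, 0.46 and 0.99 in SAMP8 replicates 2 and 3 and was detected on all 4 arrays, against -0.58 and -0.87 in replicate 1, where it was detected on neither. Lum was therefore at least 2.51-fold higher (adjusted p = 0.00113), a bound set at the lowest intensity detected on each array. Bgn, for biglycan, differed by 0.72 ± 0.16 (adjusted p = 0.0338). Fmod (fibromodulin) and Ogn (osteoglycin), relatives that also bind fibrils, differed by -0.01 ± 0.24 and -0.08 ± 0.24, with adjusted p of 0.996 and 0.99.

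**Figure D2:**
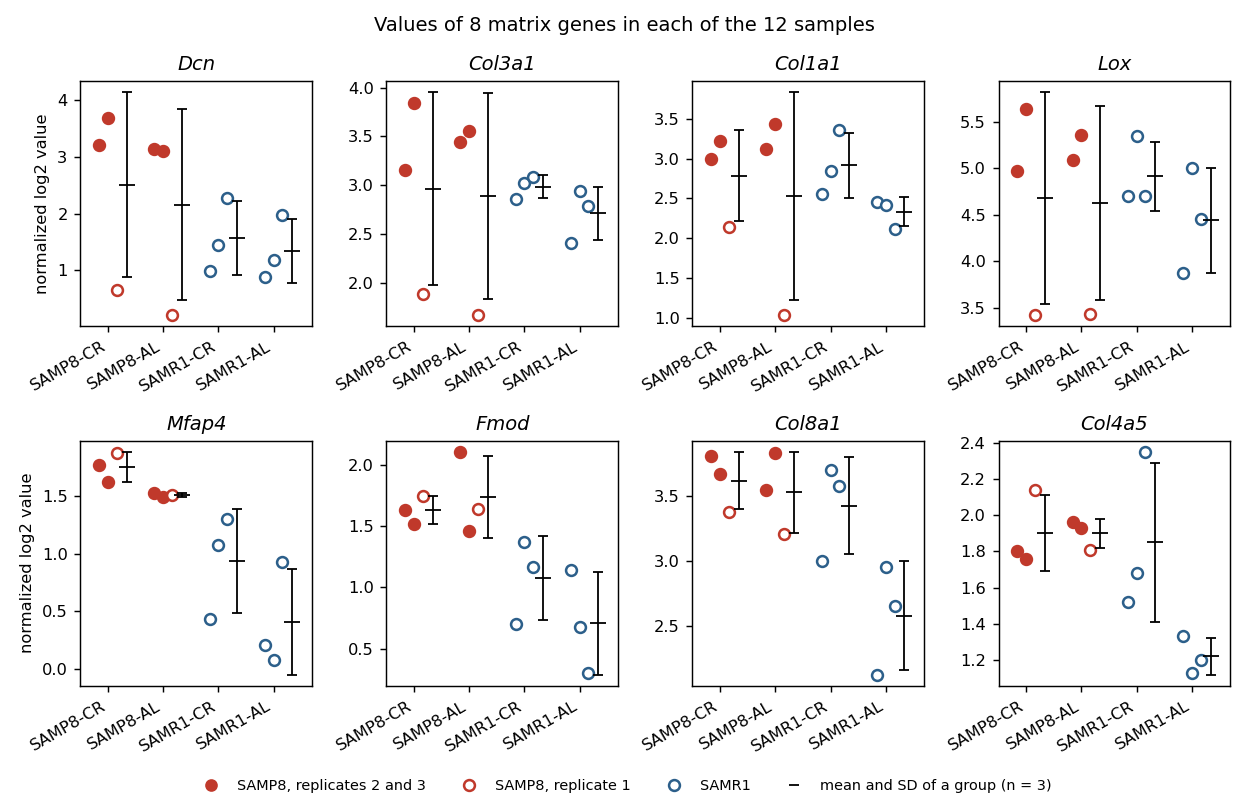
Normalized log2 intensity of Dcn, Col3a1, Col1a1, Lox, Mfap4, Fmod, Col8a1 and Col4a5 (y axis) in each sample by group (x axis), with the mean and SD of each group (n = 3). In Dcn, Col3a1 and Lox the replicate 1 samples of both SAMP8 groups sit below every SAMR1 sample, while in Mfap4 and Fmod all 6 SAMP8 samples sit above all 6 SAMR1 samples.

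Of 6 genes for fibulins and microfibril or elastic fibre proteins, which scaffold elastic fibres, 3 were higher in SAMP8 replicates 2 and 3. Fbln1, a fibulin that binds fibronectin and elastic fibres, read 0.63 to 0.75 in the 4 SAMP8 samples of replicates 2 and 3, against -0.24 and -0.50 in replicate 1, and differed by 1.04 ± 0.11 (adjusted p = 0.000181). Emilin1, a glycoprotein at the elastin interface, differed by 1.36 ± 0.19 (adjusted p = 0.00125). Fbln2 differed by 1.72 ± 0.35 (adjusted p = 0.0212) on its brighter probe and by 0.34 on a dimmer one, which did not pass. Elastin itself (Eln) differed by 0.20 ± 0.10, with values of -0.22 to -0.06 in replicates 2 and 3 against -0.32 in each replicate 1 sample, and did not pass (adjusted p = 0.711). Mfap5, a microfibril glycoprotein, read 1.05 and 0.92 in replicate 3 of SAMP8-CR and SAMP8-AL and between -0.68 and -0.42 in the other 4 SAMP8 samples, so that replicate 3 stood apart from both others. Mfap4, another microfibril protein, differed by -0.09 ± 0.17 (adjusted p = 0.988).

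The collagens outside the fibril core were mixed. Of the 3 chains that sit on fibril surfaces, Col16a1 differed by 0.98 ± 0.15 (adjusted p = 0.0037) and Col9a3 by 0.81 ± 0.10 (adjusted p = 0.000718), while Col14a1, a dim probe, differed by 0.08 ± 0.08. Of 7 network and beaded filament chains, 2 were higher in SAMP8 replicates 2 and 3 and the median was -0.06. Col6a1, a chain of the beaded filaments that link cells to fibrils, read 2.59, 2.46, 2.88 and 2.95 in SAMP8 replicates 2 and 3, against 1.64 and 0.93 in replicate 1, and differed by 1.43 ± 0.23 (adjusted p = 0.0042). Col7a1, the anchoring fibril chain, differed by 1.19 ± 0.20 (adjusted p = 0.00512). The other 5, Col4a4, Col4a5, Col4a6, Col8a1 and Col8a2, differed by between -0.22 and 0.42, and 0 of them passed. The 4 Col4a4 values of SAMP8 replicates 2 and 3 lay below both replicate 1 samples, at -0.16 to 0.09 against 0.12 and 0.31. No other of the 36 genes did so (2.78%, against 7.99% of all genes). Col18a1, whose C-terminal fragment is endostatin, and Col28a1 differed by 0.15 ± 0.26 and -0.03 ± 0.08.

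Lox, the lysyl oxidase that cross-links collagen and elastin, read 4.97 and 5.64 in SAMP8-CR replicates 2 and 3 and 5.09 and 5.36 in SAMP8-AL replicates 2 and 3, against 3.42 and 3.43 in replicate 1. It differed by 1.84 ± 0.29 (3.58-fold, adjusted p = 0.00379), whereas its relative Loxl1 differed by -0.20 ± 0.20 (adjusted p = 0.956). Of 7 fibronectin and matricellular genes, 3 were higher. Thbs2, a thrombospondin that limits vessel growth and shapes fibrils, differed by 1.19 ± 0.20 (adjusted p = 0.00488), and Mgp, an inhibitor of matrix calcification, by 1.29 ± 0.26 (adjusted p = 0.022). Fn1 (fibronectin) differed by 1.35 ± 0.28 on its brightest probe (adjusted p = 0.0279), the only one of 3 probes past the threshold, with 0.68 as the smallest difference. Postn (periostin), Tnc (tenascin C), Sparc and Sparcl1, which modulate adhesion and collagen binding, differed by 0.33, 0.09, -0.09 and -0.04, and 0 of these 4 passed.

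Each count rests on 2 replicate 1 samples, whose deviations from their group means correlated (r of 0.38 over all kept probes). Without SAMP8-AL replicate 1, 3 genes (Dcn, Col9a3 and Fbln1) remained of the 18, and 14 probes passed overall instead of 134; without SAMP8-CR replicate 1, 9 of the 18 remained and 46 probes passed. Leaving out any other sample left 15 to 18 of them.

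In SAMR1, whose 6 arrays all had a low lowest intensity, the same contrast ran the other way for a few genes. There 6 of the 36 genes were lower in replicates 2 and 3 than in replicate 1 and 0 were higher, against 3.93% of all genes lower and 0.905% higher. Dcn read 0.98 and 1.44 in SAMR1-CR replicates 2 and 3 and 0.88 and 1.19 in SAMR1-AL replicates 2 and 3, against 2.27 and 1.97 in replicate 1, a difference of -1.0 ± 0.18 (adjusted p = 0.00631). Mgp differed by -1.42 ± 0.26 (adjusted p = 0.00788), Sparcl1, a SPARC relative made by astrocytes, by -0.99 ± 0.15 (adjusted p = 0.0029), and Lum by -0.96 ± 0.21 (adjusted p = 0.0202). Col7a1 (-0.83) and Mfap4 (-0.66) were also lower, with adjusted p of 0.0319 and 0.0435. The median of the 36 genes was -0.15, against -0.07 over all genes, and none of the fibrillar collagens passed. Without SAMR1-AL replicate 1 the count was 0, without SAMR1-CR replicate 1 it was 1 (Sparcl1), without SAMR1-AL replicate 3 or SAMR1-CR replicate 2 it was 3 (Sparcl1, Dcn and Mgp), and without SAMR1-CR replicate 3 it was 9. With median centring in place of Z normalization all genes shifted by -0.43 in this contrast, and the calls over all genes were then 13 higher and 2559 lower in place of 73 higher and 317 lower. Quantile normalization gave 60 higher and 143 lower, and normexp background correction before it 56 higher and 130 lower.

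The difference between the 2 replicate contrasts, SAMP8 minus SAMR1, was itself tested. It passed for 14 of the 36 genes, all of them more positive in SAMP8, against 1.35% of all genes more positive and 0.0744% more negative. The largest were Dcn with 3.85 ± 0.25 (adjusted p = 1.15e-06), Mgp with 2.70 ± 0.37 (adjusted p = 0.0018), Fbln2 with 2.62 ± 0.49 (adjusted p = 0.0152) and Lum with 2.48 ± 0.29 (adjusted p = 0.000452). Of the 14 genes, 12 were detected on some array of both replicate sets in both strains. Lum was not detected in SAMP8 replicate 1, and Col9a3 (0.63) was detected on 0 of 6 SAMR1 arrays, so for Col9a3 no SAMR1 contrast above background was measured. Among the fibrillar chains Col3a1, Col1a1 and Col1a2 passed, and Col5a1 (0.83, adjusted p = 0.241) did not; Lox (1.69, adjusted p = 0.0684) and Fn1 (1.03, adjusted p = 0.307) did not either. The count was 3 without SAMP8-AL replicate 1, 6 without SAMR1-CR replicate 1 and 8 without SAMR1-AL replicate 1. Same-numbered samples of the strains deviated together with CR serum (r of 0.19 to 0.37) but not with AL serum (-0.11 to 0.02). Replicate 1 of SAMR1 therefore need not match replicate 1 of SAMP8, and the test describes these replicates and not the strains. It too took same-numbered CR and AL samples as independent.

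**Figure D3:**
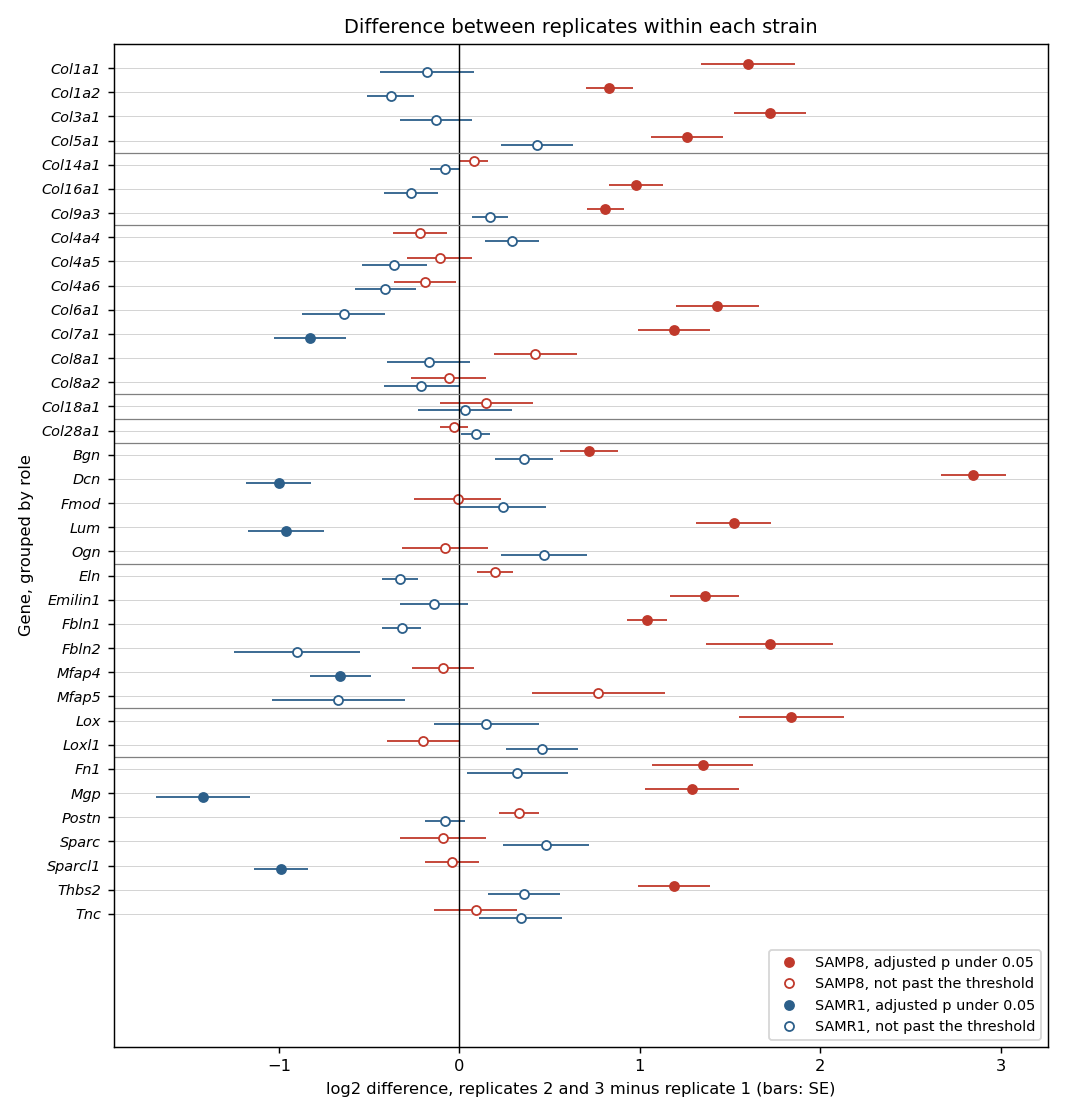
Log2 difference between replicates 2 and 3 and replicate 1 (x axis, with its SE from limma) for each of the 36 genes (y axis, by role), in SAMP8 (red) and in SAMR1 (blue). Filled points have an adjusted p under 0.05. The SAMP8 points are filled for 18 genes, all above 0, with Dcn highest at 2.85, and the SAMR1 points are filled for 6 genes, all below 0.

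Each kind of SAMP8 sample was also set against SAMR1. All 4 SAMP8 samples of replicates 2 and 3 were above all 6 SAMR1 samples in 11 of the 36 genes (30.6%, against 6.38% of all genes), namely Bgn, Col1a2, Col3a1, Col7a1, Col9a3, Dcn, Emilin1, Fbln1, Fmod, Mfap4 and Postn. They were below them in 0 genes (4.61% of all genes). Of the 11, Col1a2 had met the detection requirement only through SAMP8-CR, and Col9a3 and Postn only through SAMP8-AL. The place of these genes among the 11 follows in part from how genes were kept. Both SAMP8 replicate 1 samples were below all 6 SAMR1 samples in 10 genes (27.8%, against 8.75% of all genes) and above them in 2, Fmod and Mfap4 (5.56%, against 10.5% of all genes). Col3a1, Dcn and Emilin1 did both, with replicates 2 and 3 above and replicate 1 below the whole SAMR1 range, as did 8 of the 8068 genes (0.0992%).

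Between strains with AL serum (P8AL-R1AL, all 12 samples), 4 of the 36 genes were higher in SAMP8 and 0 were lower, against 5.18% higher and 3.81% lower over all genes. They were Mfap4, Fmod, Col8a1 and Col4a5, of which none had passed in the SAMP8 replicate contrast. Mfap4 read 1.53, 1.49 and 1.51 in SAMP8-AL replicates 2, 3 and 1, against 0.21, 0.08 and 0.93 in SAMR1-AL, and the groups did not overlap. Its difference was 1.11 ± 0.23 (adjusted p = 0.00996). Fmod read 2.11, 1.46 and 1.64 in SAMP8-AL, against 1.14, 0.68 and 0.30 in SAMR1-AL, a difference of 1.03 ± 0.23 (adjusted p = 0.0139). Col8a1, a short-chain collagen of vessel walls and of the corneal endothelium, read 3.55, 3.83 and 3.21 in SAMP8-AL, against 2.13, 2.96 and 2.66 in SAMR1-AL, a difference of 0.94 ± 0.24 (adjusted p = 0.026). Col4a5, a basement membrane collagen chain outside the ubiquitous pair, differed by 0.68 ± 0.19 (adjusted p = 0.0398).

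Over the 36 genes the median P8AL-R1AL difference was 0.29, with 29 positive (80.6%, against 52.6% of all genes), and was 0.81 over the 5 small leucine-rich proteoglycans, 0.53 over the 6 fibulin and microfibril genes and 0.19 over the 4 fibrillar chains. Ogn (0.81, adjusted p = 0.0616) just missed the threshold, and its second probe differed by -0.05. Col9a3 was detected on no SAMR1-AL array and on all 3 SAMP8-AL arrays, and was at least 1.33-fold higher (adjusted p = 0.106, not past the threshold). The fibrillar chains differed by 0.66 for Col1a2 (adjusted p = 0.125), 0.20 for Col1a1, 0.18 for Col3a1 and -0.03 for Col5a1. In 7 genes every SAMP8-AL sample was above every SAMR1-AL sample (19.4%, against 16.5% of all genes), and in 0 was it below (13.7% of all genes). Col9a3, kept through SAMP8-AL only, was 1 of the 7. Without SAMP8-AL replicate 2 only Mfap4 passed, and without SAMP8-AL replicate 3 or SAMR1-AL replicate 2 Mfap4 and Fmod did. Col4a5 also did not pass without SAMP8-AL replicate 1, SAMP8-CR replicate 2 or 3, or SAMR1-AL replicate 1 or 3.

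The 2 kinds of SAMP8 sample gave different strain comparisons. With SAMP8 replicates 2 and 3 only, against all SAMR1 samples of the serum, the median P8AL-R1AL difference was 0.71, 34 of the 36 genes were positive and 10 were higher, against 2.9% higher and 1.24% lower over all genes. Those 10 were Dcn (1.78), Col7a1 (1.36), Mfap4 (1.11), Col8a1 (1.11), Fmod (1.08), Fbln1 (1.03), Col1a2 (1.02), Emilin1 (0.96), Col1a1 (0.95) and Col9a3, with adjusted p of 0.00218 to 0.0422. Col9a3 was detected on no SAMR1-AL array and was at least 1.55-fold higher. Col9a3 and Postn had met the detection requirement only through SAMP8-AL, and Col1a2 and Mfap5 only through SAMP8-CR, so a call for one of these in favour of SAMP8 follows in part from how genes were kept. In this setting strain and array set cannot be told apart, since every SAMP8 array is of the second set and every SAMR1 array of the first. Within the 8 arrays of the first set, where SAMP8 has 1 sample per serum that was taken to vary like the SAMR1 groups, the median was -0.13 and 0 genes passed (0.431% higher and 0.337% lower over all genes). There Mfap4 differed by 1.11 (adjusted p = 0.281) and Fmod by 0.93 (adjusted p = 0.32), while Col1a1 (-1.30), Col3a1 (-1.04) and Dcn (-1.14) were negative. With the array set as a block the median was -0.06. All SAMR1 arrays were of the first set, so the block term was estimated only from the SAMP8 replicates. The strain difference in that fit therefore rests on SAMP8 replicate 1 against SAMR1. Mfap4 was then the 1 gene higher (1.17, adjusted p = 0.032), and Thbs2 (-1.24), Col16a1 (-0.92), Col6a1 (-1.42) and Col3a1 (-0.97) were lower in SAMP8, against 2.89% higher and 2.78% lower over all genes.

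**Figure D4:**
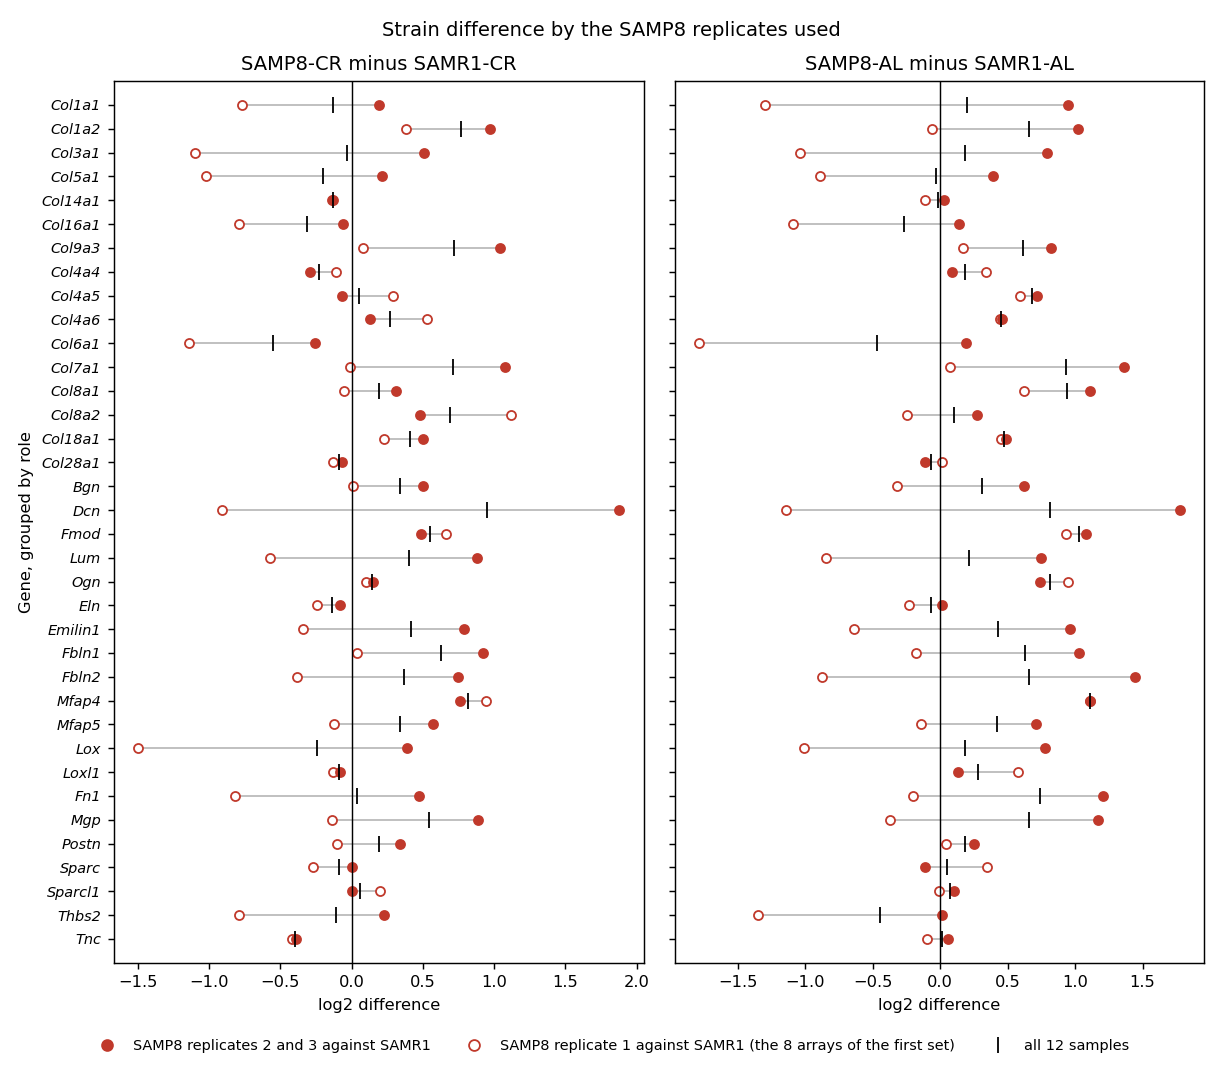
Log2 difference between SAMP8 and SAMR1 (x axis) for each of the 36 genes (y axis), with CR serum in the first panel and AL serum in the second. Filled points use SAMP8 replicates 2 and 3 only, open points replicate 1 within the first array set, and ticks all 12 samples. The filled and open points of Dcn lie at 1.78 and -1.14 with AL serum, while those of Mfap4 both lie at 1.11.

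With CR serum (P8CR-R1CR) 0 of the 36 genes passed in limma, against 1.47% higher and 1.3% lower over all genes, and 6 had an unadjusted p under 0.05, all of them positive (15.5% of all genes had such a p). The median difference was 0.16, with 22 positive. Mfap4 read 1.77, 1.62 and 1.88 in SAMP8-CR replicates 2, 3 and 1, against 0.43, 1.08 and 1.30 in SAMR1-CR, a difference of 0.82 ± 0.23 (adjusted p = 0.0818). Col8a2, the partner chain of Col8a1, differed by 0.69 ± 0.20 (adjusted p = 0.0904), Col1a2 by 0.77 ± 0.26 (adjusted p = 0.143) and Col9a3 by 0.72 ± 0.23 (adjusted p = 0.116), the last detected on 0 of 3 SAMR1-CR and 2 of 3 SAMP8-CR arrays and at least 1.42-fold higher. The groups did not overlap for Col1a2, Col8a2, Fmod and Mfap4, which were above SAMR1-CR in every SAMP8-CR sample (11.1%, against 11.0% of all genes), or for Col14a1 and Tnc, which were below it (5.56%, against 8.73% of all genes). With SAMP8 replicates 2 and 3 only, Dcn (1.88), Col1a2 (0.97), Fbln1 (0.92) and Col9a3 (at least 1.78-fold, detected on 0 of 3 SAMR1-CR arrays) were higher, against 1.14% higher and 0.744% lower over all genes. Col1a2 and Col9a3 are 2 of the genes kept through a SAMP8 group alone. Within the first set 0 passed (0.605% higher and 0.163% lower over all genes). With the array set as a block Col6a1 (-1.51), Lox (-1.47), Col3a1 (-1.18) and Col16a1 (-0.96) were lower in SAMP8, against 1.5% higher and 1.59% lower over all genes. This block too was estimated only from the SAMP8 replicates, so these values rest on SAMP8 replicate 1. With the replicate number as a block, 2 genes were higher, Mfap4 (0.82, limma adjusted p = 0.0306) and Col9a3 (adjusted p = 0.0157), against 2.24% higher and 2.12% lower over all genes. Leaving out 1 sample gave 1 call for Col1a2 (without SAMP8-AL replicate 1), Col9a3 (without SAMP8-CR replicate 1) or Mfap4 (without SAMR1-AL replicate 1), and 2 for Mfap4 and Col8a2 (without SAMR1-CR replicate 1). With median centring all genes shifted by 0.23 and the calls over all genes were 112 higher and 50 lower, in place of 119 higher and 105 lower.

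Between sera no difference was called in either strain. In R1CR-R1AL, P8CR-P8AL and the interaction of strain and serum, 0 of the 36 genes passed in limma, as did 0% of all genes. Unadjusted p-values under 0.05 were found in 4 genes for R1CR-R1AL, all positive (2.93% of all genes), in 1 for P8CR-P8AL (4.92%) and in 2 for the interaction (3.58%). In SAMR1 the smallest p-values belonged to Col8a1, with 3.00, 3.7 and 3.58 in SAMR1-CR replicates 2, 3 and 1 against 2.13, 2.96 and 2.66 in SAMR1-AL (0.84 ± 0.24, unadjusted p = 0.00328), and to Col4a5 (0.63 ± 0.19, unadjusted p = 0.00535), both with an adjusted p of 0.999. The serum groups did not overlap in SAMR1 for Col1a1, Col4a5 and Col8a1 (8.33%, against 2.29% of all genes above). Ogn (0.62, but 0.08 on its second probe) and Mfap4 (0.53) followed, and Mgp differed by 1.02 ± 0.54. The median over the 36 genes was 0.13, with 29 positive.

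In SAMP8 the CR minus AL differences had a median of 0.04. Col8a2 read 0.15, 0.12 and 0.78 in SAMP8-CR replicates 2, 3 and 1, against -0.02, 0.05 and -0.51 in SAMP8-AL (0.51 ± 0.20, unadjusted p = 0.0237, adjusted p = 0.818). Mgp (0.90), Loxl1 (-0.34) and Col1a2 (0.33) had the next smallest p-values, with adjusted p of 0.818 to 0.833. Same-numbered samples of SAMP8 deviated together, and with the replicate number as a block within each strain 0 of the 36 genes passed in P8CR-P8AL, in R1CR-R1AL or in the interaction. Mgp was higher with CR than with AL serum in each same-numbered pair, by 0.81, 0.65 and 1.24 in SAMP8 replicates 2, 3 and 1 and by 0.76, 1.44 and 0.85 in SAMR1 replicates 2, 3 and 1. In that blocked limma fit its difference was 0.90 ± 0.17 in SAMP8 (adjusted p = 0.38) and 1.02 ± 0.17 in SAMR1 (adjusted p = 0.0694). Dcn and Mfap4 were also higher with CR serum in all 6 pairs, so that 3 of the 36 genes were (8.33%, against 2.19% of all genes) and 0 were lower in all 6 (1.18% of all genes). The same-numbered SAMR1 samples were not taken as paired, so the SAMR1 pairs and block follow the replicate number only. Their correlations (r of 0.09 to 0.57) overlapped those of SAMP8 (0.12 to 0.44), so whether they were paired is not settled. In SAMP8, samples of the same number also shared an array set. The interaction was -0.75 ± 0.34 for Col8a1, -0.63 ± 0.27 for Col4a5, -0.67 ± 0.36 for Ogn and 0.60 ± 0.29 for Col8a2, each with a limma adjusted p of 0.965. On the second Ogn probe it was -0.09. With median centring all genes shifted by 0.17 in P8CR-P8AL and by 0.12 in the interaction. The interaction median was -0.12 and 8 of the 36 genes were positive. R1CR-R1AL and P8AL-R1AL share the SAMR1-AL samples, which held the lowest group mean of Col8a1, Col4a5, Mfap4, Fmod and, on its brighter probe only, Ogn.

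Genes that act on the same matrix from outside the 36 differed between the SAMP8 replicates in part. Over all genes 1.23% were higher and 0.149% lower in this contrast. Of 17 collagen folding, processing and cross-linking enzymes, 2 were higher in SAMP8 replicates 2 and 3, Pcolce, which speeds the removal of the procollagen C-propeptide (1.15 ± 0.16, adjusted p = 0.00125), and the lysyl oxidase relative Loxl2 (0.69, adjusted p = 0.038), and the median was 0.27. Of 14 genes for TGF-beta ligands, receptors and matrix targets, 1 was higher, Tgfb1 (0.70, adjusted p = 0.022). Of 7 collagen and matrix receptors 0 passed. Of 11 basement membrane genes 4 were higher, the linker nidogen Nid1 (1.51), the laminin chain Lamb1 (1.05) and the type IV chains Col4a2 (1.31) and Col4a1 (1.02), with adjusted p of 0.000324 to 0.0262. In P8AL-R1AL the same 4 lists held 1 gene higher (Crtap), 2 lower (Tgfbi and Ltbp1), 1 higher (Itgav) and 0 past the threshold, against 5.18% higher and 3.81% lower over all genes. Tgfbi, a TGF-beta-induced matrix protein, read 1.31, 0.87 and 0.23 in SAMP8-AL replicates 2, 3 and 1, against 2.54, 2.00 and 2.22 in SAMR1-AL, and was also lower in P8CR-R1CR (-1.45 with AL and -1.42 with CR serum).

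Markers of fibroblasts and meninges moved with the SAMP8 replicate contrast as well. Of 12 such genes kept, none of them among the 36, 5 were higher in SAMP8 replicates 2 and 3, against 1.23% of all genes. The median was 0.69. Igf2, a growth factor made by the leptomeninges, read 3.76 and 3.98 in SAMP8-CR replicates 2 and 3 and 3.60 and 3.41 in SAMP8-AL replicates 2 and 3, against 0.79 and 1.04 in replicate 1 (2.78 ± 0.17, adjusted p = 6.08e-07). In SAMR1 Igf2 read 0.04 to 0.31 in replicates 2 and 3, against 2.04 and 1.54 in replicate 1 (-1.57 ± 0.17, adjusted p = 0.000512). The other 4 higher in SAMP8 replicates 2 and 3 were the forkhead factors Foxd1 (1.92) and Foxc2 (1.19), Igfbp6 (1.05) and Itih2. Of the 24 markers with a probe, 8 were detected on no array, the meningeal factors Foxc1 and Tbx18, the retinoic acid genes Aldh1a2 and Crabp2, and Ccl11, Fap, Slc6a13 and Slc6a20a. The mean level of the 12 markers was 0.80 to 1.12 per sample in SAMP8 replicates 2 and 3, 0.12 to 0.23 in SAMP8 replicate 1 and 0.23 to 0.63 in SAMR1. The part of these cells in the differences of the 36 genes was not tested.

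The other cell type lists moved less in SAMP8. Their medians in SAMP8 replicates 2 and 3 against replicate 1 were -0.28 over 15 astrocyte markers (0 passed), 0.53 over 12 microglia and macrophage markers (1 passed, C1qb), 0.18 over 6 endothelial markers (1 passed, Cdh5) and 0.11 over 7 pericyte and smooth muscle markers (0 passed), with 5 of the 13 pericyte and smooth muscle markers with a probe, such as Myh11 and Kcnj8, detected on no array. The 3 oligodendrocyte and precursor markers averaged 2.50 to 2.91 in SAMP8 replicates 2 and 3 and 2.70 to 3.41 in SAMP8 replicate 1. The 3 neuron markers averaged 0.13 to 0.32 and -0.01 to 0.38 in these samples. In SAMR1 the astrocyte median was -0.43 and 6 astrocyte markers were lower in replicates 2 and 3 (3.93% of all genes were), among them Cldn10 (-1.84), Gfap (-1.42) and Aqp4 (-1.11). In P8AL-R1AL, 6 of 12 microglia markers were lower in SAMP8 (median -1.0) and 0 of 12 fibroblast and meningeal markers passed (median 0.11). Over all genes 5.18% were higher and 3.81% lower. The microglia markers averaged 2.12 to 2.47 in SAMP8 replicates 2 and 3 and 1.57 to 2.11 in SAMP8 replicate 1, against 2.51 to 3.35 in SAMR1. The part of these cells in the strain differences of Mfap4, Fmod, Col8a1 and Col4a5 was not tested.

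**Figure D5:**
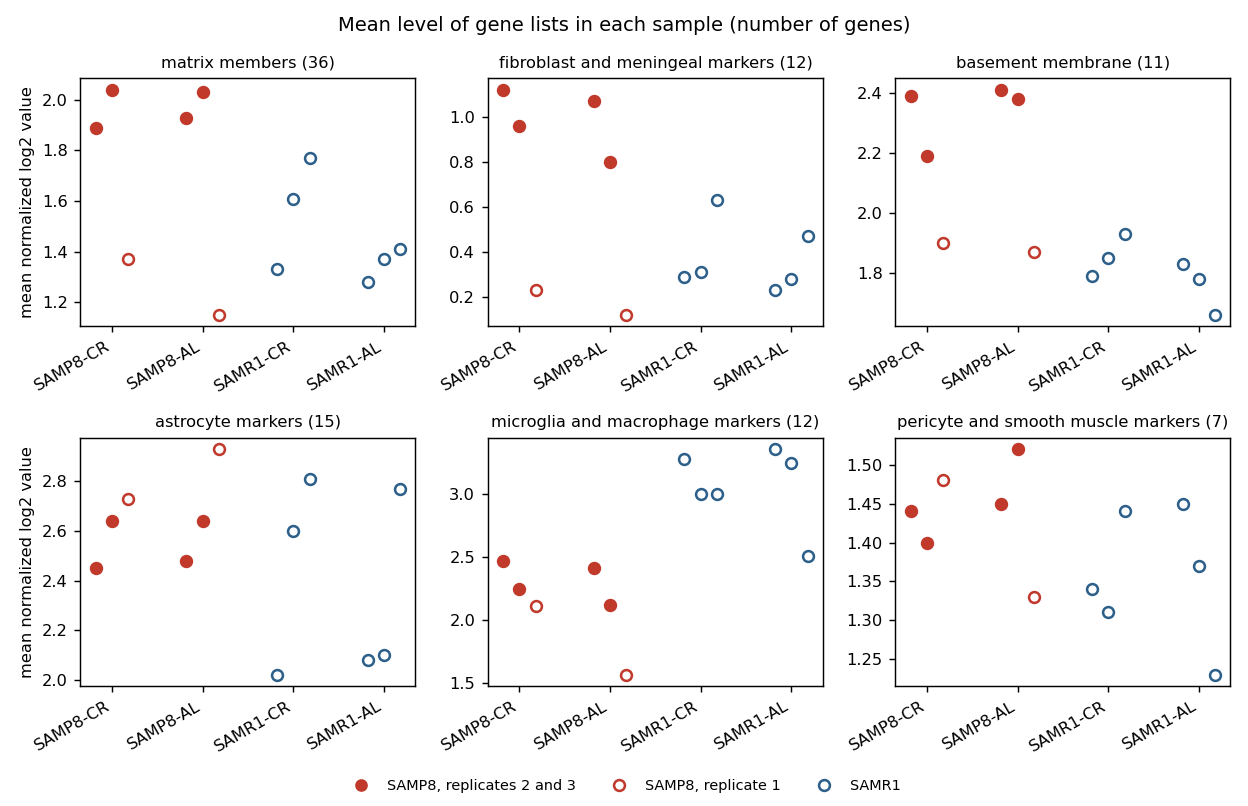
Mean normalized log2 intensity per sample (y axis) of the 36 matrix genes and of the fibroblast and meningeal (12 genes), basement membrane (11), astrocyte (15), microglia (12) and pericyte (7) lists, by group (x axis). The matrix genes average 1.89 to 2.04 in SAMP8 replicates 2 and 3, 1.15 to 1.37 in SAMP8 replicate 1 and 1.28 to 1.77 in SAMR1.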

How the data were processed

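The authors deposited raw bead intensities on a linear scale for 24613 probes in 12 samples, a detection p-value for each probe and array, and a table of Z scores. The deposited Z scores matched values recomputed from the intensities to within 5.0e-10. Log2 intensities were Z-normalized per array, as in the study's methods, and rescaled by the average SD over arrays (1.418). Of the probes, 20984 named 1 gene, 1 several and 3628 none. The 10935 probes with a detection p under 0.05 on all 3 arrays of some group entered limma 3.58.1 (R 4.3.3, lmFit and eBayes with trend), as 1 fit of all 12 samples, with Benjamini-Hochberg adjustment over all of them and a threshold of 0.05. The replicate contrasts came from a fit with terms for replicates 2 and 3 of each strain, which took same-numbered samples as independent. A gene is represented by its brightest kept probe. The 36 genes, the related lists and the tests were chosen with earlier results of these data known, and the lists were not tested as sets. Genes are named where they passed (at most 12 per comparison by size), otherwise the 4 with the smallest p, and 2 per role; the rest of the 36 are given for completeness. Scripts were tested on simulated data. Array sets were defined from the lowest intensity after seeing the data. In their deviations from the group means, the 3 same-numbered pairs correlated with r of 0.12 to 0.44 in P8CR-P8AL and 0.19 to 0.37 in P8CR-R1CR. These were taken as paired. The pairs of R1CR-R1AL (0.09 to 0.57) and P8AL-R1AL (-0.11 to 0.02) were not. For R1CR-R1AL the range overlaps that of P8CR-P8AL, so these values do not settle whether the SAMR1 samples were paired. A block within each strain was therefore added after seeing the data. Promoters are from RefSeq. Figures used Python 3.11.15 with matplotlib 3.10.9.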

Additional observations from a re-analysis of the deposited data

Results flagged for a closer look

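The contrast of replicates 2 and 3 with replicate 1 differed between SAMP8 and SAMR1, by the test of that difference, in 14 of the 36 genes, against 1.35% of all genes more positive and 0.0744% more negative in SAMP8. As log2 differences SAMP8 minus SAMR1, the proteoglycans Dcn and Lum had 3.85 and 2.48, and the fibulins and microfibril proteins Fbln2, Emilin1 and Fbln1 had 2.62, 1.5 and 1.36. Of the collagens, Col6a1 had 2.08, Col7a1 2.01, Col3a1 1.85, Col1a1 1.78, Col16a1 1.25, Col1a2 1.21 and Col9a3 0.63. Col9a3 was detected on 0 of 6 SAMR1 arrays, so its value sets SAMP8 against background, and Lum was not detected in SAMP8 replicate 1. The matricellular genes Mgp and Sparcl1 had 2.70 and 0.95. Adjusted p was 1.15e-06 to 0.0468. For Sparcl1 the difference came from SAMR1, where it was lower in replicates 2 and 3 (-0.99), while its SAMP8 contrast was -0.04. The low lowest intensity of the array was shared by SAMP8 replicate 1 and all SAMR1 samples, and the part of the array set in these differences was not tested. Replicate 1 of SAMR1 need not match replicate 1 of SAMP8, so these differences describe the replicates and not the strains. Their adjusted p took same-numbered CR and AL samples as independent.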

How the results depend on the processing

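In P8AL-R1AL, where 1057 probes and 4 of the 36 genes passed, the counts were 367 and 1 with median centring, 74 and 0 within the first array set, 621 probes under the array set block, 129 and 0 within the first set with normexp background correction and quantile normalization, 497 and 10 with SAMP8 replicates 2 and 3 only, and 508 and 5 with 10 samples (leaving out replicate 1 of SAMP8-AL and of SAMR1-AL). Those 5 were Mfap4, Col8a1, Col1a2, Col7a1 and Fbln1, while Fmod (adjusted p = 0.0734) and Col4a5 (adjusted p = 0.113) no longer passed. The settings that join background correction to the array sets, and that with SAMP8 replicates 2 and 3 only, were chosen after seeing the data. Of the 36 genes, 14 changed sign under the array set block and 17 within the first set, 0 of them past the threshold with all samples. Col3a1 (-0.97 and -1.04 in these settings), Dcn (-1.09 and -1.14) and Bgn (-0.17 and -0.32) did so in both. Among the genes named by rule for this comparison, those under the block were Col1a1 -0.87, Fbln1 -0.07, Lox -1.04, Fn1 -0.16 and Postn -0.04 (with background correction -0.96, -0.22, -0.95, -0.17 and -0.07), and within the first set Col1a2 -0.06, Col1a1 -1.30, Fbln1 -0.18, Lox -1.01 and Fn1 -0.20 (with background correction -0.17, -1.41, -0.42, -1.0 and -0.19). Col16a1 turned to 0.14 with SAMP8 replicates 2 and 3 only and to 0.23 with the 10 samples. In P8CR-R1CR, with 306 probes and 0 genes, the counts were 183 probes where detection was required on all 12 arrays, 80 within the first set, 65 there with background correction, 197 probes and 4 genes with SAMP8 replicates 2 and 3 only, 4 genes with the array set as a block (7 with background correction) and 2 genes with the 10 samples. These gene counts of P8CR-R1CR ran in opposite directions. The 4 genes with SAMP8 replicates 2 and 3 only and the 2 with the 10 samples were higher in SAMP8. The 4 genes under the array set block, and the 7 there with background correction, were lower in SAMP8. In P8CR-P8AL, Loxl1 turned to 0.13 with median centring and Col1a2 to -0.03 with the 10 samples. The study's Z ratio at 1.5 or beyond uses no replicate spread. It took in 19 of the 36 genes in P8AL-R1AL, 17 higher and 2 lower, against 929 and 747 of all 8068 genes. In P8CR-R1CR it took in 17, 15 higher and 2 lower (852 and 670 of all genes). In R1CR-R1AL it took in 18, 17 higher and 1 lower (892 and 656). In P8CR-P8AL it took in 10, 7 higher and 3 lower (1232 and 783). In the interaction it took in 14, 2 higher and 12 lower (1005 and 840).

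The SAMP8 replicate contrast had 314 probes in place of 134 when SAMP8 was fitted alone, and its count of 18 genes stayed within 1.5 times in each of 8 settings. The SAMR1 contrast, with 486 probes and 6 genes, had 230 probes with background correction, 252 and 3 genes with quantile normalization, 3375 and 19 with median centring and 165 probes when fitted alone. The difference of the contrasts, with 139 probes and 14 genes, had 74, 77 and 585 probes under the same 3 normalizations (22 genes with median centring), 226 probes with no filter on dim probes, 65 without the trend in eBayes, and 9 genes where detection was required on all 12 arrays. Leaving out 1 sample at a time gave 431 to 1346 probes and 1 to 5 genes in P8AL-R1AL, 167 to 357 and 0 to 2 in P8CR-R1CR, 0 to 2 probes in R1CR-R1AL and 0 to 1 in the interaction with 0 genes in both, 14 to 205 probes and 3 to 18 genes in the SAMP8 contrast, 10 to 1001 and 0 to 9 in the SAMR1 contrast, and 19 to 208 and 3 to 15 in their difference. It turned the sign of Col1a1 (-0.26 to 0.95), Lox (-0.18 to 0.78) and Col16a1 (-0.52 to 0.14) in P8AL-R1AL, of Col1a2 in P8CR-P8AL (-0.03 to 0.52), and of Loxl1 (-0.45 to 0.05) and Col18a1 (-0.02 to 0.29) in the SAMP8 contrast. The replicate number as a block gave 1372 probes and 6 genes in P8AL-R1AL, 477 probes and 2 genes in P8CR-R1CR, and 0 in the comparisons of serum. As a block within each strain, chosen after seeing the data, it gave 3 probes in R1CR-R1AL in place of 0 and 0 in P8CR-P8AL and the interaction. The causes of these changes were not tested. Dim probes such as those of Postn, Col14a1 and Col28a1 lie near background, where a difference is least well measured.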
